A study of Mus musculus with 12 samples.

Results

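The detectable olfactory receptor genes were the members of the Olfr family whose array probes gave a signal in mouse embryonic stem cells. They were chosen by measured values: a probe was taken where its gene name in the files begins with Olfr and the scanner software flagged it as well above background on at least 3 of the 8 single-colour arrays. This held for 164 of the 952 Olfr probes, which stand for 161 of 908 Olfr gene names, among 41174 probes in all. By the same rule 26319 probes of any gene were detectable.

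The cells were E14, a mouse embryonic stem cell line, treated for 72 hr with esiRNA at 0.33 ng/µl, which is a pool of short interfering RNAs made by enzyme digestion, and with Lipofectamine 2000. The esiRNA was directed at p400, an ATPase that remodels chromatin and is encoded by Ep400, at Tip60 (gene Kat5, Htatip in the files), a histone acetyltransferase of the same complex, or at EGFP as the control, so every group received esiRNA and transfection reagent. The p400 knockdown was set against EGFP on 4 two-colour arrays of slide 1, with knockdown RNA in Cy5 on arrays 1 and 3 and in Cy3 on arrays 2 and 4. The Tip60 knockdown and EGFP each had 4 single-colour arrays, with EGFP 1 and 3 and Tip60 2 and 4 on slide 2 and the others on slide 3. The study excluded Tip60 replicate 3 as an outlier, so it was left out of each group value here. The labels call the replicates biological and do not say whether the EGFP cultures of the two-colour and single-colour arrays were the same. Each array measured RNA of a whole well, so more expressing cells and more RNA per cell cannot be told apart.

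Olfactory receptors are G protein-coupled receptors of olfactory sensory neurons, and each mature neuron is known to express a single receptor gene from 1 allele. The genes lie in clusters on many chromosomes and are kept in silent, heterochromatic chromatin in other cells. Odorant binding acts through the G protein subunit Gnal, the adenylyl cyclase Adcy3 and the cyclic nucleotide-gated channel subunit Cnga2. The odorant bound by most of the receptors named here is not stated in the files, so the receptors are described by position and sequence rather than by ligand.

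The probes of 5 receptors that were higher in p400 knockdown carry the same stretch of codon letters, matched in any reading frame. It holds the codons for an asparagine, a proline, a hydrophobic residue, an isoleucine or valine and a tyrosine, a pattern that family members share at the end of the seventh membrane helix. These probes are shown 5′ to 3′ as deposited, with the codons of the stretch in capitals, because they show how much sequence the probes have in common. The last of them, for Olfr1414, is not a member and was chosen after its values were seen. The Olfr120 probe has no reading frame free of stop codons, so its capitals mark matching letters and no open frame.
Olfr713: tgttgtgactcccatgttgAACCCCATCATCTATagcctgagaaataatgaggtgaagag
Olfr120: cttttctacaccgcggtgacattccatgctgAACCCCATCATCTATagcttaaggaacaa
Olfr954: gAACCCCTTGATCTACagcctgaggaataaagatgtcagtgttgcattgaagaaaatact
Olfr983: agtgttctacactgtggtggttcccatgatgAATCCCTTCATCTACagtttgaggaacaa
Olfr996: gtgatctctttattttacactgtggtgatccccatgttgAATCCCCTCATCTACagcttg
Olfr1414: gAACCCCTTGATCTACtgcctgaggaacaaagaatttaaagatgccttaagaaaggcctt

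The other probes of the largest changes carry no such stretch, although that of Olfr390 ends in its first codons. They are shown for comparison, in lower case throughout, and where each lies in its receptor was not analysed. The last, of Olfr985, had the lowest p400 ratio of all members.
Olfr815: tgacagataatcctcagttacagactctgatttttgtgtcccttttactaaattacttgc
Olfr20: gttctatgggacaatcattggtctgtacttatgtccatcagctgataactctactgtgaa
Olfr881: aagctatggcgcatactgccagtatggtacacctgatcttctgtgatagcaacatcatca
Olfr390: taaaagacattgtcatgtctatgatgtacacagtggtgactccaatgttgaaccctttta
Olfr985: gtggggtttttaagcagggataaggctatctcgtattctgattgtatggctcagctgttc

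On build mm7, to which the files assign the probes, the probe of Olfr713 lies at chr7:102927973-102928032 on the plus strand and that of Olfr120 at chr17:35899315-35899373 on the plus strand. The probe of Olfr815 lies at chr10:129413173-129413232 on the minus strand. On chromosome 11 lie the probes of Olfr20, at chr11:73436078-73436137, and Olfr390, at chr11:73869319-73869378, both on the plus strand. On chromosome 9 lie those of Olfr881, at chr9:37922654-37922713, and Olfr954, at chr9:39392191-39392250, both on the plus strand. Also on chromosome 9 are Olfr983, at chr9:40021973-40022032, and Olfr985, at chr9:40057555-40057614, both on the minus strand. The files give a gene for each probe but no exon or UTR, and these were not analysed here.

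Detection of the members followed the slide. On the 4 arrays of slide 2, between 131 and 160 of the 164 members were well above background, against between 34 and 113 on the 4 arrays of slide 3. Of the members, 138 were detected on more arrays of slide 2 than of slide 3 and 1 on more arrays of slide 3, while 34 were detected on no array of slide 3. Over all probes the range was 60.4% to 64.3% on slide 2 and 50.8% to 68.9% on slide 3. The lowest share of members, 20.7%, was on Tip60 array 3. Both groups lay on both slides, and the Tip60 values below are also given with the slide as a block where that moved them by over 1.5 times. The flags on these arrays chose the members, so these counts are a description.

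**Figure D1:**
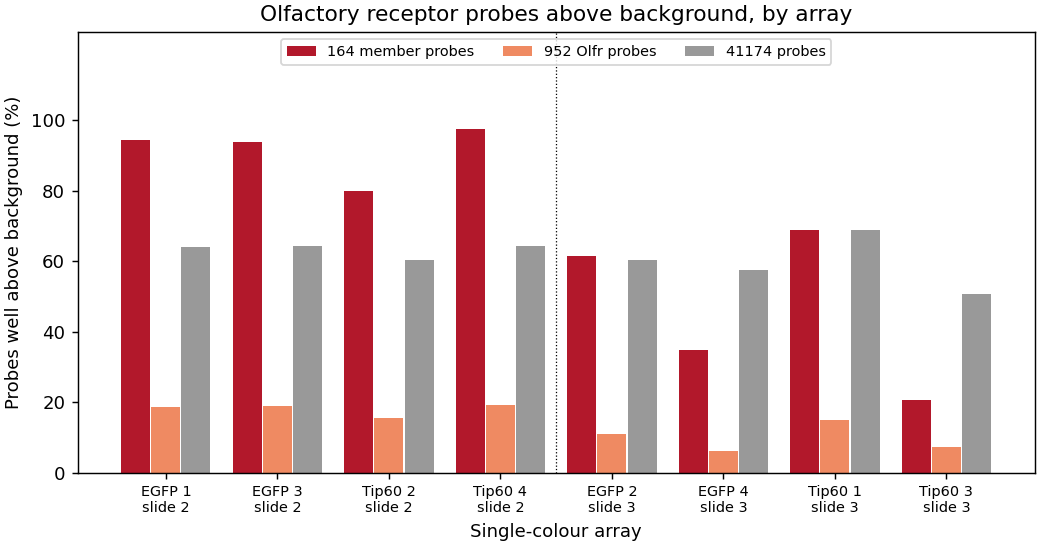
Share of probes flagged well above background (%, y axis) on each single-colour array (x axis, ordered by slide), for the 164 member probes, the 952 Olfr probes and all 41174 probes. The members reach 79.9% to 97.6% on slide 2 and 20.7% to 68.9% on slide 3, while the share of all probes lies between 50.8% and 68.9%.

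The members were dim in control cells. Levels on the single-colour arrays are log2 processed signal relative to the 75th percentile of the array, and differences are taken only between arrays of the same probe. The median member level on the EGFP arrays was between -5.37 and -4.62, while the median over all detectable probes was between -1.03 and -1.01. In EGFP cells the member levels of slide 2 exceeded those of slide 3 by a median of 0.65, against 0.02 over all detectable probes and -0.43 over the Olfr probes outside the rule. These arrays' own flags separated the members from the others. Only 19 members were well above background on all 8 arrays. The 22 members flagged on exactly 3 arrays had mean EGFP levels from -7.86 to -5.52 (median -6.29), and the 22 Olfr probes flagged on exactly 2 had levels from -7.88 to -5.67 (median -6.48), so the rule cut through a continuous range.

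A few receptors had a clear signal in control cells. The 5 member probes with the brightest mean signal in EGFP cells were those of Olfr571, Olfr234, Olfr985, Olfr174 and Olfr1153, which is no order of expression, since probes differ in how they bind. Olfr571 had levels of 1.97, 1.55 and 1.53 on EGFP arrays 1, 2 and 4 and of 1.51 and 1.80 on Tip60 arrays 1 and 4, with EGFP array 3 and Tip60 array 2 dropped for outlier flags. Its groups overlapped, and its log2 ratio in p400 knockdown was 0.20 ± 0.06 (SE, n = 4; limma adjusted p = 0.0578), short of the threshold. One of its spots was saturated, so its level is a lower limit there. Olfr234, which the current gene table calls Olfr279, had a p400 log2 ratio of 0.20 ± 0.07 (SE, n = 4; limma adjusted p = 0.077). Olfr174, now called Olfr175, was at 0.07 ± 0.09 (SE, n = 4; limma adjusted p = 0.554). Neither passed the threshold.

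The p400 arrays took no part in choosing the members, so the p400 knockdown could be tested. A limma model with a dye term was fitted to the log2 ratio of knockdown over EGFP for the 26318 detectable probes with enough values, all 164 members among them. At an adjusted p under 0.05, 21 members were called higher and 2 lower, and 141 were not called. The share called higher was 12.8% of members beside 18.4% of all tested probes, and the share called lower was 1.22% beside 15.7%. In this fit the shares of members called lay below those of all tested probes in both directions. For calls higher the order reversed under some settings. The share was 15.2% of members beside 13.5% with median centring, and 13.4% beside 11.7% with all probes fitted. With a fold of at least 1.5 required it was 7.32% beside 6.65%. Under the other settings the members' share called higher stayed below. The median member ratio was 0.03 on the log2 scale, beside 0.00 over all tested probes, and the quartiles of the members were -0.03 and 0.11.

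Large changes were seen in few receptors. Of the 21 members called higher, 8 rose at least 2-fold, which is 4.88% of members beside 2.51% of all tested probes. Of the 8, 5 were well above background on no EGFP single-colour array and were members only through Tip60 arrays, where they were high. Among the 99 members detected on at least 3 of the 4 EGFP arrays, 3 rose at least 2-fold, or 3.03% beside 2.4% of the 24661 probes detected in that way. The 8 were Olfr713, Olfr815, Olfr20, Olfr120, Olfr881, Olfr954, Olfr390 and Olfr983, which came from 5 chromosomes. Every one of them was well above background in knockdown RNA on 4 of 4 arrays.

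Olfr713 was the member with the highest ratio. Its log2 ratios on p400 arrays 1 to 4 were 3.20, 3.04, 3.26 and 1.85, a fitted ratio of 2.84 ± 0.18 (SE, n = 4; limma adjusted p = 5.65e-04) or 7.14-fold. Both RNAs were well above background on 4 arrays. Olfr815 had log2 ratios of 2.58, 3.16, 2.90 and 1.82, which fitted to 2.62 ± 0.21 (SE, n = 4; limma adjusted p = 0.00106) or 6.13-fold. Olfr20 had log2 ratios of 2.68, 2.24, 2.76 and 1.44, fitted to 2.28 ± 0.13 (SE, n = 4; limma adjusted p = 4.27e-04) or 4.86-fold. In all 3 receptors array 4 had the lowest ratio, and it was still far above 0.

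The next 5 receptors were near or below the detection limit in EGFP RNA, which was flagged as detected on 1 of 4 arrays for Olfr120, Olfr881, Olfr954 and Olfr983 and on none for Olfr390. Olfr120 had log2 ratios of 1.96, 1.99, 2.05 and 0.81, with a fit of 1.70 ± 0.18 (SE, n = 4; limma adjusted p = 0.00203). Olfr881 had 1.75, 1.86, 2.17 and 0.88, with a fit of 1.66 ± 0.16 (SE, n = 4; limma adjusted p = 0.00180). For both genes arrays 1 to 3 lay close together and array 4 apart from them. Olfr954 had 1.55, 1.58, 1.71 and 0.59, Olfr390 had 1.75, 1.49, 1.54 and 0.61, and Olfr983 had 1.39, 1.37, 1.40 and 0.46. Their fitted log2 ratios were 1.36, 1.35 and 1.15, with limma adjusted p from 0.00212 to 0.00325. For Olfr390, whose EGFP RNA no array measured, the ratio has only a lower limit, at least 2.51-fold higher in p400 knockdown. That limit sets the knockdown mean against the lowest EGFP signal well above background on each array.

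**Figure D2:**
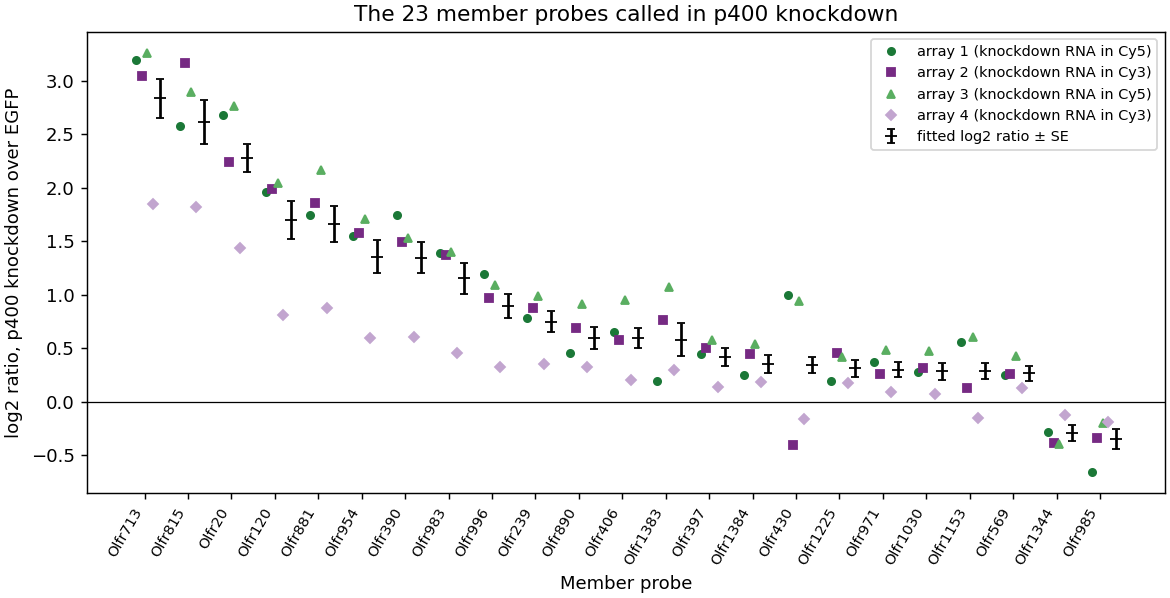
Log2 ratio of p400 knockdown over EGFP (y axis) of the 23 member probes called (x axis), with 1 point an array (n = 4 arrays) and the fitted ratio ± SE in black. Array 4 has the lowest ratio in each of the 8 receptors called at least 2-fold higher, and the 2 members called lower, Olfr1344 and Olfr985, lie below 0 on all 4 arrays.

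Array 4 gave smaller ratios in general. Its ratio was a median of 43.1% of the mean of arrays 1 to 3 over the 8 receptors, and 63.3% over the 661 probes of any gene called at least 2-fold higher. Without array 4, 18 members were called higher (11%) and 1 lower, beside 14.7% and 9.52% of all tested probes. Without array 2, 13 were called higher (7.93%) and 0 lower, beside 9.97% and 7.09% of all tested probes. The calls of 12 members did not depend on any single array: the 8 above, Olfr996, Olfr239, Olfr890 and Olfr406.

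Smaller rises reached the threshold in 13 further members. Olfr996 had log2 ratios of 1.20, 0.97, 1.09 and 0.33 on arrays 1 to 4, and Olfr239 had 0.78, 0.88, 0.99 and 0.36. Their fitted values were 0.90 ± 0.11 (SE, n = 4; limma adjusted p = 0.00325) and 0.75 ± 0.10 (SE, n = 4; limma adjusted p = 0.00402). Both were above 0 on all 4 arrays. A second probe of Olfr996, 284 bases away, was flagged on 1 single-colour array and was not a member. Its log2 ratio was -0.02 in a fit of all probes and was not called, so the probes of that gene disagreed. Olfr890 and Olfr406 followed at 0.60 each, Olfr1383 at 0.58, and the remaining 8 lay between 0.27 and 0.42. In all, 19 of the 21 members called higher were above 0 on every array. The exceptions were Olfr430 and Olfr1153, which were above 0 where knockdown RNA carried Cy5 and, for Olfr430, below 0 on both arrays where it carried Cy3 (1.0 and 0.94 against -0.40 and -0.16). Olfr1153 was at 0.13 and -0.15 on the Cy3 arrays. Both lost their call without the dye term, with limma adjusted p of 0.328 for Olfr430 and 0.152 for Olfr1153.

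The 2 falls were small. Olfr985 had log2 ratios of -0.65, -0.34, -0.19 and -0.18, fitted to -0.34 ± 0.09 (SE, n = 4; limma adjusted p = 0.0344). Olfr1344 had -0.28, -0.38, -0.40 and -0.12, fitted to -0.29 ± 0.08 (SE, n = 4; limma adjusted p = 0.0288). Both were below 0 on every array, but Olfr985 lost its call without array 1, 2 or 4 and Olfr1344 without array 2 or 3. A second member probe of Olfr1344 was at 0.00, so the probes of that gene disagreed.

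The treatment of background set the size of the rises more than their calls. Beside normexp correction with an offset of 50, the ratios were computed with an offset of 10, with no correction, with plain subtraction floored above 0, from the scanner software's own log ratio and from the deposited value table. Of the 35 members called higher under any of the 6, 20 were called under every one, and Olfr1153 was the only one of the 21 missing, under the software's log ratio. Olfr120 ranged from 1.57 with no correction to 4.90 in the software's log ratio, and Olfr390 from 1.26 to 4.44. Olfr20, which was well above background in both RNAs on 4 arrays, ranged only from 2.20 to 3.07. Under the subtraction 32 members were called higher and 8 lower, beside 21.2% and 20% of all tested probes. Under the software's log ratio 26 were called higher and 15 lower, beside 18.4% and 25.2%.

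**Figure D3:**
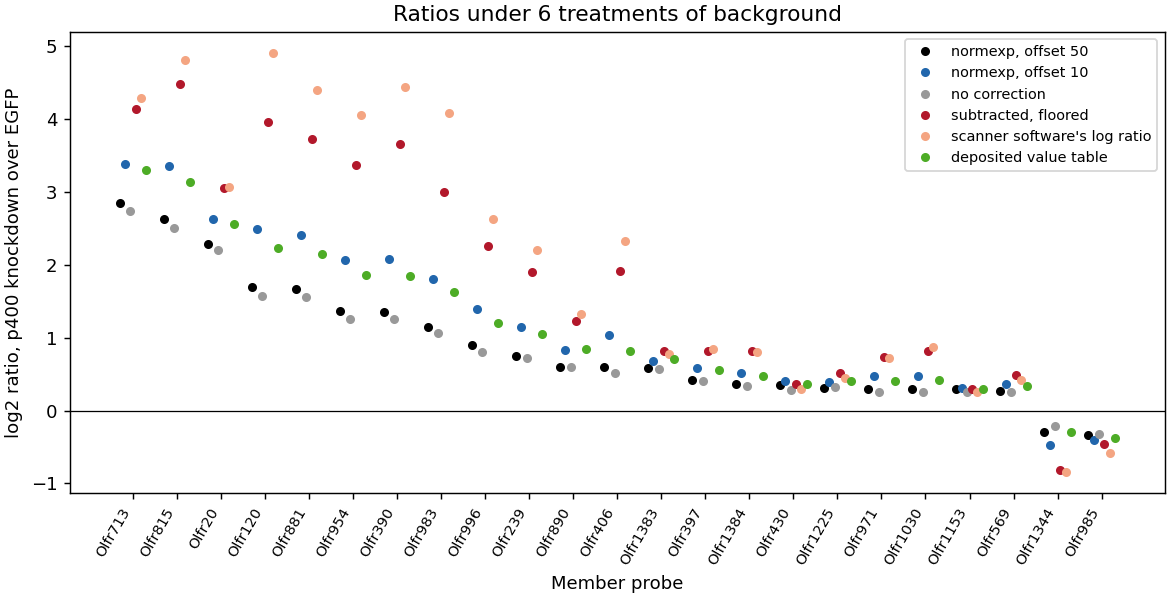
Log2 ratio of p400 knockdown over EGFP (y axis, fitted over n = 4 arrays) of the 23 called member probes (x axis) under 6 treatments of background, 1 colour each. The 8 receptors at the left stay above 1 under each, from 1.07 for Olfr983 with no correction to 4.90 for Olfr120, and the spread between treatments is wide where EGFP RNA was dim.

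The Tip60 arrays were among those whose flags chose the members, so a receptor that was dark in EGFP cells could enter only through Tip60 arrays. The Tip60 values are therefore a description with no test. On Tip60 arrays 1, 2 and 4, 18 members lay above all 4 EGFP arrays and 2 below, which is 11.0% and 1.22% of members beside 17.9% and 15.8% of detectable probes. The median member difference was 0.22 on the log2 scale beside 0.01 over all detectable probes. With the slide as a block it was 0.08, on slide 2 alone 0.08, and it was -0.04 from the deposited value table and after normexp with quantile normalization, so its direction depends on the processing. No direction is drawn from it.

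The differences of single receptors were far larger than that shift. Olfr713 had levels of -4.73, -4.51, -4.64 and -4.41 on EGFP arrays 1 to 4 and of -1.09, -1.08 and -1.11 on Tip60 arrays 1, 2 and 4, with -1.18 on the excluded array 3. Olfr20 had -4.65, -4.69, -4.67 and -5.03 against -1.31, -1.24 and -1.08, with -1.38 on array 3. The groups did not overlap, and the differences were 3.48 ± 0.09 and 3.55 ± 0.11 (SE, n = 3 and 4), or 11.2-fold and 11.7-fold. Olfr815 differed by 3.43 ± 0.10 (SE, n = 3 and 4), or 10.8-fold, with 3 of 4 EGFP arrays well above background.

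Of the members, 6 were well above background on no EGFP array and so have only a lower limit for their difference. Olfr120 had levels of -8.25, -7.84, -7.91 and -7.43 on the EGFP arrays and of -3.28, -3.27 and -3.40 on Tip60 arrays 1, 2 and 4, with means of -7.86 and -3.32, and was at least 5.17-fold higher. Olfr390 had EGFP levels of -7.91, -7.69, -7.69 and -7.12 and Tip60 levels of -3.30, -3.08 and -3.14, with means of -7.60 and -3.17, and was at least 5.71-fold higher. Olfr983 had EGFP levels of -8.01, -6.32, -7.44 and -7.28 and Tip60 levels of -3.55, -3.39 and -3.49, with means of -7.26 and -3.48, and was at least 4.62-fold higher. None of these groups overlapped, and the excluded Tip60 array 3 gave -3.79, -3.33 and -3.64 for the 3 genes. Olfr881 was at least 4.99-fold higher, Olfr954 at least 3.72-fold and Olfr406 at least 1.58-fold. Each limit sets the Tip60 mean against the lowest signal well above background on each EGFP array.

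**Figure D4:**
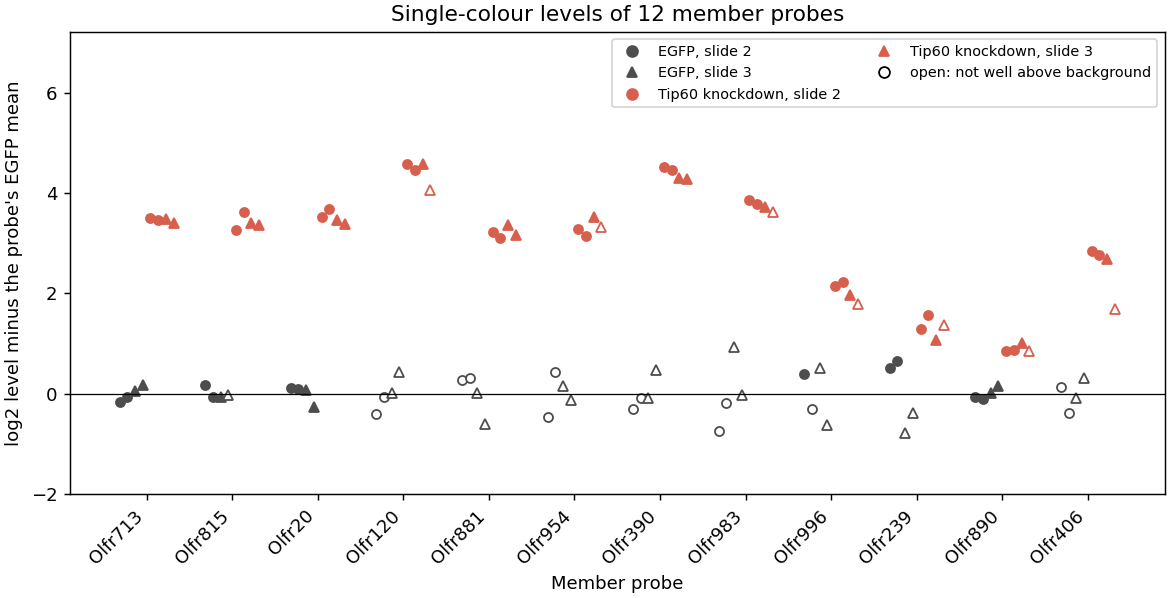
Level of 12 member probes on each single-colour array, as log2 level minus the mean of that probe's 4 EGFP arrays (y axis), with circles for slide 2, triangles for slide 3 and open symbols where the probe was not well above background. In each of the 12 the Tip60 points of both slides, including the excluded replicate 3, lie above the 4 EGFP points, and 6 receptors have only open EGFP points.

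Among members lower in Tip60 knockdown, Olfr985 had levels of -1.19, -1.05, -1.29 and -1.18 on the EGFP arrays and of -1.68, -1.90 and -1.61 on Tip60 arrays 1, 2 and 4. Olfr1344, by the probe that fell in p400 knockdown, had -5.29, -5.25, -5.21 and -4.82 against -5.97, -5.41 and -5.53. These were the 2 members whose Tip60 levels lay below all EGFP levels. Olfr608, Olfr741 and Olfr259 had differences of -0.56, -0.47 and -0.40 with overlapping groups. With the slide as a block these were -0.94, -0.49 and -0.81.

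Set side by side, the 12 receptors with the highest p400 ratios also lay above all EGFP arrays in Tip60 knockdown. Of the 12, 6 were well above background on no EGFP single-colour array and were members only through Tip60 arrays, where they were high. Olfr996 and Olfr239, flagged on 1 and 2 EGFP single-colour arrays, also reached 3 arrays only with Tip60 flags. The rule itself favoured that order for those 6 and these 2, so it is a description. Since the EGFP cultures may be shared, the values are given without a test of their overlap. Olfr397, Olfr430, Olfr971, Olfr1153 and Olfr569 were called in p400 knockdown while their Tip60 levels overlapped EGFP. Olfr411 and Olfr559 lay above EGFP in Tip60 knockdown, by 0.60 and 1.20, with p400 log2 ratios of 0.10 and 0.03 that were not called. The effect of one knockdown was not tested against the other, since the arrays differ in kind.

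**Figure D5:**
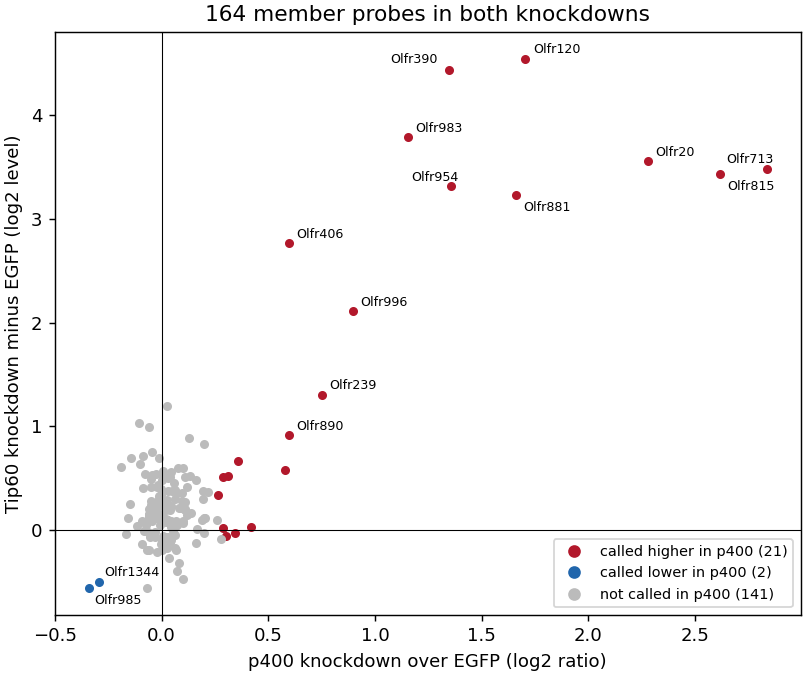
Log2 ratio in p400 knockdown (x axis, n = 4 arrays) against the log2 difference in Tip60 knockdown (y axis, n = 3 and 4 arrays) of the 164 member probes, 1 point a probe. The 12 labelled receptors called higher in p400 knockdown lie at 0.60 or above on the x axis and 0.91 or above on the y axis, Olfr985 and Olfr1344 lie below 0 on both, and most of the 141 members not called lie near 0 on the x axis.

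The receptors called lay in several clusters. Olfr probes were taken as 1 cluster where they lay within 1 Mb of the next. The counts of each cluster stand beside 12.8% of members and 18.4% of all tested probes called higher, and were not tested. The chromosome 9 cluster of 87 Olfr probes held 15 members, of which Olfr881, Olfr890, Olfr954, Olfr971 and Olfr983 were called higher and Olfr985 lower. The chromosome 11 cluster of 28 probes that starts at Olfr20 held 10 members, of which Olfr20, Olfr390, Olfr397 and Olfr406 were called higher. The chromosome 2 cluster, the longest at 4.96 Mb, held 26 members, of which Olfr996, Olfr1030, Olfr1153 and Olfr1225 were called higher. Counting the nearest Olfr probe on either side of the 22 called members with a placed chromosome gave 42 neighbours. They stand for 39 distinct genes, apart from second probes of a called gene. Of the 42, 11 were members and so were tested. Of the 11, 2 were called, beside 18.4% of all tested probes called higher and 15.7% called lower. The 2 were Olfr1383 and Olfr1384, each the neighbour of the other, with probes 9970 bases apart. The other 31 were dim by the rule and outside that fit. In a fit of all probes 1 of the 31 was called, beside 21.7% of all probes in that fit. It was Olfr114, which lies beside Olfr120 and had a log2 ratio of 0.23. Olfr983 and Olfr985, which went in opposite directions, lie on either side of Olfr984, which was not a member.

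Probes alike in sequence did not all move alike. Altogether 42 Olfr probes carry the stretch shown in capitals, which was looked for after the values were seen, so its counts have no test. Of these probes, 10 were members and 5 of those were called higher, while 16 of the 154 members without the stretch and 18.4% of all tested probes were. Of the 5, Olfr120, Olfr954 and Olfr983 were well above background on no EGFP single-colour array and Olfr996 on 1. These passed the rule only with Tip60 arrays, where they were high, so the rule itself favoured that count. The 32 that were not members had p400 log2 ratios from -0.08 to 0.50. The probe of Olfr983 matched that of Olfr918 at 47 of 57 overlaid bases, yet Olfr918 had a log2 ratio of 0.01 and was well above background in knockdown RNA on 1 of 4 arrays. It matched the probe of Olfr996, which rose, at 43 of 52 bases. The probe of Olfr120 matched that of Olfr713, which rose, at 33 of 48 bases with a run of 20 identical ones, and the probe of Olfr713 matched that of Olfr1499 at 41 of 54 bases, where the log2 ratio was 0.05. Whether RNA of one receptor bound the probe of another was not tested.

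The members differed from the other Olfr probes in base composition. Their probes had a median GC content of 45%, beside 40% for the 788 Olfr probes outside the rule, and the 21 called higher had 43.3%. The part of GC content in detection was not tested.

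Promoters of the members were examined in RefSeq sequence of build GRCm38.p6, from 250 bases before to 50 after the start, with 138 of 161 member symbols and 18 of the 21 called higher matched. The homeodomain core TAATTA, on either strand, was in 18.6% of Olfr promoters, 21% of member promoters and 5 of the 18 called higher, beside 5.31% of all promoters. The motif TATAAA was in 41.1% of Olfr promoters, 37.0% of member promoters and 7 of the 18, beside 14.2% of all. The Ebf motif core CCCNNGGG was in 3.07% of Olfr promoters, 3.62% of member promoters and 1 of the 18, beside 13.4% of all. A match is a description of letters and not of a bound site.

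Gene lists for the olfactory pathway are read against the 18.4% of all tested probes called higher and the 15.7% called lower in p400 knockdown. Of 17 detectable genes for olfactory signal transduction, 6 were called higher (35.3%) and 2 lower (11.8%), with a median log2 ratio of 0.13. The rises included Rgs2, a regulator of G protein signalling, at 2.0, the chloride transporter gene Slc12a2 at 0.62 and the G protein subunit gene Gng13 at 0.49. Adcy3 and Camk1 were called lower, at -0.28 and -0.53, while Gnal was at 0.02 and Cnga2 at 0.16, neither called. Of 9 detectable genes for receptor trafficking, only Homer2 was called, at 0.80, and the receptor transporting proteins Rtp1 and Rtp2 were not well above background on any single-colour array. The single-colour filter that decided which listed genes were detectable used the Tip60 arrays, so no Tip60 calls are counted for the lists.

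Of 15 detectable markers of the olfactory sensory neuron, 4 were called higher (26.7%) and 3 lower (20%) in p400 knockdown, with a median of 0.09, shares near those of all tested probes. Lhx2, Ebf1 and Tubb3 were called higher, at 0.74, 0.43 and 0.40, and Neurod1, Ncam1 and Adcy3 lower, at -0.85, -0.73 and -0.28. Omp, the marker of the mature neuron, was detected on 2 of 4 Tip60 arrays and on 0 of the 4 for EGFP, and was not tested. The summed marker level was between 3.04 and 3.10 (log2) on the EGFP arrays and between 3.20 and 3.27 on Tip60 arrays 1, 2 and 4. Tubb3, a tubulin of neurons in general, carried most of it, and without Tubb3 the sum was between 1.96 and 2.05 in EGFP and between 1.79 and 1.90 in Tip60 knockdown, the opposite order. Omp, Stoml3, S100a5, Ncam2, Kirrel3 and Nrp1 were well above background on no EGFP array. For markers of other cells of the olfactory epithelium, 3 of 6 detectable genes were called higher, Cyp2a5, Krt5 and Sult1c1, at 0.45, 0.36 and 0.36, and 1, Sox2, lower. The summed level of all 14 listed genes, detectable or not, was between 3.88 and 3.91 in EGFP and between 3.69 and 3.80 in Tip60 knockdown. Sox2, also a stem cell factor, and Kit carried that sum, and without both it was between -2.11 and -1.76 in EGFP and between -1.42 and -1.23 in Tip60 knockdown. That remainder includes genes outside the rule. It also includes Cyp2a5, at -6.19 to -5.04 in EGFP and -4.15 to -3.30 on Tip60 arrays 1, 2 and 4. Cyp2a5 was flagged on 1 EGFP array and passed the rule only with Tip60 arrays, so no direction is drawn from the remainder. Of the list, 8 of 14 were well above background on no EGFP array. The part of other cells in the receptor values was not tested.

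Of 22 detectable genes for receptor gene choice and silencing, 5 were called higher and 5 lower in p400 knockdown, 22.7% each way, with a median of 0.00. The chromatin proteins Cbx1 and Trim28 were called higher, at 0.79 and 0.63, as was the transcription factor gene Lhx2. Cbx3, Ddit3 and Cbx5 were called lower, at -0.70, -0.59 and -0.49.

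Of 172 genes of other chemoreceptor families, 29 were detectable, 6 were called higher (20.7%) and 1 lower (3.45%) in p400 knockdown, and the median was -0.01. The share called higher was near that of all tested probes. The vomeronasal receptor genes Vmn1r227, Vmn1r58 and Vmn1r46 rose by 1.94, 1.78 and 0.87. In Tip60 knockdown the differences of Vmn1r227 and Vmn1r58 were 2.46 and 1.90.

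Other gene groups that stem cell cultures can express were set beside the receptors. Of the genes of the 2-cell-like state, 8 of 8 detectable ones were called higher in p400 knockdown (median log2 ratio 3.94). In Tip60 knockdown their median difference was 3.37, as a description, since the rule used those arrays and 1 of the 8, Tdpoz1, was well above background on no EGFP array. Zfp352, Zscan4c and Tcstv3 were at 4.52, 4.37 and 4.29 in p400 knockdown. Of 14 detectable germ cell markers, 5 were called higher (35.7%) and 1 lower (7.14%) in p400 knockdown, with Dazl at 2.07, Sycp1 at 1.36 and Tsga8 at 0.96 and Sycp3 at -1.16. Feeder fibroblast markers had 4 of 8 called higher, with Thy1, Col1a1 and Fbn1 at 1.43, 0.80 and 0.59, and Vim lower at -0.37. Of 12 embryonic stem cell markers, all well above background on every EGFP array, 2 were called higher, Fbxo15 at 1.09 and Dppa3 at 0.41. Another 3 were called lower, Dppa5a at -0.39, Esrrb at -0.25 and Sox2 at -0.21. Pou5f1 was at 0.05 and Nanog at 0.11, neither called. Whether any of these groups had a part in the receptor values was not tested.

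The knockdowns were visible on the targeted genes. Kat5 was called lower in both, with a log2 difference of -1.49 ± 0.07 (SE, n = 3 and 4; limma adjusted p = 2.51e-05) in Tip60 knockdown, where 12.6% of detectable probes were called higher and 8.6% lower, and a log2 ratio of -0.43 ± 0.08 (SE, n = 4; limma adjusted p = 0.0108) in p400 knockdown. Of 3 detectable Ep400 probes, 2 were called lower in p400 knockdown, at -0.58 and -0.72, and the third was at 0.22 (limma adjusted p = 0.0796).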

How the data were processed

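Arrays of Agilent design 014868 were read with Feature Extraction 9.5.1.1, per the file headers. The deposited files give spot intensity, background and a processed signal intensity, and for the two-colour arrays a log10 ratio of red over green. The deposited value table holds log2 values whose steps are not given in the sources used here: its p400 columns had medians from 0 to 0.01 and r from 0.797 to 0.823 with the knockdown-over-EGFP log ratio, and its single-colour columns medians from 7.26 to 7.27. The centring of both is not stated.

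p400 signals were corrected with normexp (offset 50), loess-normalized within arrays with controls at weight 0, and fitted in limma 3.58.1 (R 4.3.3) with a dye term. Single-colour processed signals were log2-transformed relative to the 75th percentile of the array. The 1639 control spots and outlier-flagged spots were left out, and spots of a probe averaged. P values were Benjamini-Hochberg adjusted over all detectable probes, so that the p400 arrays did not choose what was tested, and all tests are two-sided. Genes of the lists were represented by their brightest detectable probe and named by accession (22951 probes), symbol (6659), synonym (3105) or the file (8459). Array number limits precision, with 4 arrays a group.

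The members and gene lists were chosen with earlier results of these data known. Members named with values were the 4 receptors given with the rule (Olfr120, Olfr390, Olfr20 and Olfr983), the highest and lowest called in p400 knockdown, the highest and lowest Tip60 differences and the 5 brightest in EGFP cells. Up to 3 rises and 3 falls were named per list. On simulated data of 26305 probes in the p400 design, 20.9%, 80.6% and 95.5% of probes changed 1.5-fold, 2-fold and 4-fold were recovered. Of the calls there, 1.5% were false, and 8.07% were false in the Tip60 design.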

Additional observations from a re-analysis of the deposited data

Results flagged for a closer look

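Of 37 groups of 4 arrays examined for the members named with values, 8 had a sample whose gap to the nearest other exceeded Dixon's critical value; chance gives about 1 in 20 groups. In 4 of them it was p400 array 4, lowest each time. Olfr713 had a log2 ratio of 1.85 there against 3.04 to 3.26 on the other arrays, Olfr120 had 0.81 against 1.96 to 2.05, Olfr954 had 0.59 against 1.55 to 1.71, and Olfr983 had 0.46 against 1.37 to 1.40. Olfr741 had a p400 log2 ratio of 0.35 on array 1 against -0.01 to 0.05. Among the EGFP levels, Olfr815 stood at -4.91 on array 1 against -5.15 to -5.11, Olfr20 at -5.03 on array 4 against -4.69 to -4.65, and Olfr1344 at -4.82 on array 4 against -5.29 to -5.21.

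The 788 Olfr probes outside the detection rule were not among the probes tested for the counts of members called. Of them, 2 were well above background in p400 knockdown RNA on all 4 arrays and in EGFP RNA on none. Olfr1414 had a log2 ratio of 0.50 ± 0.07 (SE, n = 4) and Olfr774 one of 0.36 ± 0.07 (SE, n = 4), with limma adjusted p of 0.0114 and 0.0261 in a fit of all 41173 probes. That fit called 4 of the 788 higher (0.508%) and 0 lower, the other 2 being Olfr114 and Olfr788 at 0.23 each, while it called 11.7% of all probes higher and 9.95% lower.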

How the results depend on the processing

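The 21 members called higher in p400 knockdown became 32 with background subtraction, or 19.5% beside 21.2% of all tested probes. They became 12 with a fold of at least 1.5 required, or 7.32% beside 6.65%, and 25 with median centring, or 15.2% beside 13.5%. When each array was left out they lay between 13 and 22, beside 9.97% to 17.1%. The 2 called lower, beside 15.7%, became 8 with subtraction, beside 20%, and 15 with the software's log ratio, beside 25.2%. They became 5 with the deposited value table, beside 19.4%. They became 1 with all probes tested or 1 probe a gene, beside 9.95% or 15.4%. They became 0 with arrays scaled to a common spread or a fold of at least 1.5, beside 3.23% or 2.22%. With an array left out they were 0 to 2, beside 7.09% to 14.3%. The member median of 0.03 was 0.09 with median centring, which put the median of all tested probes at -0.12 and 36.3% of them lower. In Tip60 knockdown, the 18 members above EGFP, beside 17.9% of all detectable probes, became 44 on slide 2 alone, beside 27.6%. Leaving out an array gave 18 to 42, beside 19.8% to 22.8%, with the 42 without Tip60 replicate 1, beside 21.1%. After normexp and quantile normalization there were 14, beside 12%. Including Tip60 replicate 3 gave 13, beside 12.8%, and the deposited value table gave 12, beside 11.7%. The 2 below, beside 15.8%, became 4 after normexp and quantile normalization, beside 18.1%, and 12 on slide 2 alone, beside 28.7%. They became 1 with levels floored at the detection limit, beside 15.6%. With an array left out they were 2 to 5, beside 17.7% to 20.5%. The Tip60 median was between 0.04 and 0.53 with an array left out. The number of members was 106 at 5 of 8 arrays, 19 at all 8 and 416 with the laxer flag of signal over background. At 3 of the 4 EGFP arrays alone it was 99. Of those 99, 11 were called higher in p400 knockdown. The 18.4% of all tested probes belongs to the rule of 3 of 8 arrays. Over the 24661 probes detected on at least 3 of the 4 EGFP arrays the share called higher was not computed. With the replicate block over numbers 1, 2 and 4 the Tip60 median was 0.37. Deviations of same-numbered arrays correlated at -0.397, -0.114 and -0.308. Each same-numbered pair of EGFP and Tip60 arrays lay on different slides, so these values cannot show whether the numbers mark a pairing. The cause of these shifts was not tested. Dim signal limits the members: the member median itself varied between arrays with an SD of 0.38 (log2) for the single-colour levels within groups, and of 0.0542 for the p400 ratios.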
